A study of Homo sapiens with 6 samples.

Results

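The oxysterol-binding protein (OSBP) family was described in THP-1, a human monocytic cell line established from a leukaemia, after transfection with a microRNA mimic. The 10 genes OSBPL9, OSBP, OSBPL1A, OSBPL2, OSBPL3, OSBPL5, OSBPL7, OSBPL8, OSBPL10 and OSBPL11 were chosen by name, with OSBPL9 in the lead because it has been reported as a miR-125a-5p target in monocytes. All 10 were found by NCBI gene ID among 26347 rows of the count table, and all 10 passed the filter on low counts that left 14731 genes. The 2 other human genes of the family, OSBP2 and OSBPL6, were also read. Total RNA was sequenced from 3 libraries transfected with miR-125a-5p mimic and 3 transfected with a negative control microRNA mimic, both 24 h after transfection and in the same medium with serum. The study's title speaks of macrophages, while the sample labels name monocytic cells and no differentiation step. The design text says that transfection was in triplicate, but no source used here says whether cultures or days differed, so p-values speak of the spread between libraries, part or all of which may be technical.

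OSBP-related proteins (ORPs, named after their genes, so that OSBPL9 encodes ORP9) carry lipids across narrow gaps between membranes. Their lipid-binding domain holds a sterol or phosphatidylserine in exchange for phosphatidylinositol 4-phosphate (PI4P), and the PI4P gradient between the target membrane and the endoplasmic reticulum drives the exchange. Many members bind VAP proteins of the endoplasmic reticulum through a short motif, and in monocytes and macrophages the family is known for its part in sterol traffic. ORP9 works at contacts between the endoplasmic reticulum and the Golgi or endosomes and pairs with ORP10 or ORP11.

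A microRNA recognises messenger RNAs mainly through its seed, bases 2 to 8, and a mimic is a synthetic duplex that loads the microRNA into the silencing machinery. The mature sequences from RefSeq (GRCh38.p14) are shown with the seed in capitals, to let the sites in the family's transcripts be read against it. Mature miR-125b-5p, made from a pair of other genes, has the same seed.
hsa-miR-125a-5p: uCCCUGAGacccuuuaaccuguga
hsa-miR-125b-5p: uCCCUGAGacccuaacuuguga

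Sites for this seed were sought in the longest annotated 3′ untranslated region (3′ UTR) of each gene in GENCODE 29, on the transcribed strand. The classes were the 8mer CTCAGGGA, the 7mer-m8 CTCAGGG, the 7mer-A1 TCAGGGA and the 6mer TCAGGG, each gene standing under its best match, so that a longer class always holds the 6mer. Of 12796 tested genes with a searched 3′ UTR, 6.0% had an 8mer, 10.4% a 7mer-m8, 7.97% a 7mer-A1, 13% only a 6mer, and 62.7% no match. OSBPL9 was the member with an 8mer. OSBPL5 had a 7mer-m8 and OSBPL10 a 7mer-A1, so 3 of 10 members held a match of 7 or 8 bases. OSBP, OSBPL2 and OSBPL7 had only a 6mer, and OSBPL1A, OSBPL3, OSBPL8 and OSBPL11 had no match. The longest 3′ UTR did not stand for all: a 6mer was in 4 of 5 annotated 3′ UTRs of OSBPL1A. The 6mer of OSBPL2 was in 3 of 12 annotated 3′ UTRs and that of OSBPL7 in 1 of 3. The OSBPL7 6mer, in exon 11 of 16, lay between the positions of matches in the coding sequence of another OSBPL7 transcript. Of the other family genes, OSBPL6 had 2 matches of the 7mer-A1 class and OSBP2 had none.

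The windows of both OSBPL9 matches and of the 7-base matches in OSBPL5 and OSBPL10 are shown with the match in capitals, beside the 8mer window of LIPA, the lysosomal acid lipase gene, whose transcript had the smallest p among the genes that fell.
OSBPL9 8mer: gtggttcctatCTCAGGGAtactggacttt
OSBPL9 6mer: tatacctgatgaTCAGGGcagtaggcataa
OSBPL5 7mer-m8: gctgggcccctCTCAGGGgcactggcctct
OSBPL10 7mer-A1: gtgttttatttTCAGGGAttcaacagttct
LIPA 8mer: tgcaaactcagCTCAGGGAttcattttgtg

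The OSBPL9 gene is on chromosome 1, plus strand, between 51577179 and 51798427 (GRCh38, a later build than the hg19 named for the counts). Its 8mer is in the 3′ UTR part of the last of 20 exons, at chr1:51787908-51787915, which begins at base 119 of a 3′ UTR of 680 bases. The 6mer stands upstream in the same exon, at base 31. Both were present in 7 of 8 annotated 3′ UTRs of OSBPL9. The shortest, of 473 bases, held neither, and no match was found in the OSBPL9 coding sequence. In the 30 bases on each side of the OSBPL9 8mer, 63.3% were A or U, against a median of 48.3% and an upper quartile of 58.3% over the 768 tested genes with an 8mer, and 65.0% at the LIPA site. The distance from the stop codon was below the lower quartile of those genes, 441 bases. The letters complementary to bases 13 to 16 of the microRNA were absent from the 20 bases upstream of the OSBPL9 and LIPA sites, and stood there in 4.43% of genes with an 8mer. The OSBPL5 site is at chr11:3088019-3088025 on the minus strand, in exon 22 of 22, and was in 5 of 6 annotated 3′ UTRs. The OSBPL10 site is at chr3:31660796-31660802 on the minus strand, at base 3217 of a 3′ UTR of 6107 bases, and was in 2 of 3.

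Depth ran from 8256149 to 9356861 counts in the miR-125a-5p libraries and from 8423228 to 10257791 in the control libraries. A principal component analysis used log2 CPM (counts scaled to each library's adjusted total). On its first axis, with 25% of the variance, control library 1 lay at 38.2 and the other 5 between -16.3 and -1.14. MiR-125a-5p library 3 lay apart on the second, at -31.1 against -5.24 to 21.5. Of 10 monocytic markers, all had counts, and the summed level was 2575 to 2737 CPM in miR-125a-5p libraries and 2594 to 2828 CPM in control libraries. None passed the edgeR test, and 8 of 10 had a negative fold change. An unadjusted p under 0.05 was found for 2 of 10, both higher, against 5.92% of all tested genes. These were LYZ, the secreted enzyme lysozyme, at 456 ± 61.0 CPM in miR-125a-5p libraries and 384 ± 38.6 CPM in control libraries (SD, n = 3 each), and ITGAM, the integrin chain CD11b, at 257 ± 24.3 and 222.5 ± 22.8 CPM. CSF1R, the receptor of macrophage colony-stimulating factor, at 703.5 ± 29 and 791.5 ± 53.5 CPM, and FCGR1A, an Fc receptor, at 171 ± 7.07 and 184 ± 2.17 CPM, were lower with no overlap of the groups. Groups did not overlap for 2 of 10 markers, against 11.2% of all tested genes. MPO, the granule enzyme myeloperoxidase, was the marker with the fewest counts, at 2.0 ± 0.674 and 2.54 ± 2.16 CPM. The part of these differences in the results on the family was not tested. The 16 markers of other cell types summed to 3.59 to 8.62 CPM in miR-125a-5p libraries and 5.99 to 8.88 CPM in control libraries, with 4 at 0 in every library.

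The comparison asked whether transcripts of the family, and OSBPL9 above all, fell in cells given the miR-125a-5p mimic. None of the 10 members passed in either direction by the quasi-likelihood test of edgeR, with p-values adjusted by Benjamini-Hochberg over all tested genes, where 4 of 14731 genes (0.0272%) passed and all 4 were lower. None passed by limma voom, edgeR's likelihood ratio test or DESeq2, which gave no adjusted p for OSBPL7 and OSBPL10. By edgeR, 1 of 10 members had an unadjusted p under 0.05, against 5.92% of all tested genes. The smallest edgeR adjusted p among the members was 0.833 and the largest 0.996. A negative fold change was found in 6 members and a positive one in 4, with a median of -0.019 on the log2 scale, while 49.8% of all tested genes were negative with a median of 0.0011. Counts come from bulk RNA, so fewer cells with a transcript and less of it per cell cannot be told apart.

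OSBPL9 had 152, 159 and 116 CPM in miR-125a-5p libraries 1, 2 and 3, against 126, 135 and 138 CPM in control libraries 1, 2 and 3. MiR-125a-5p libraries 1 and 2 were above every control library and miR-125a-5p library 3 was below every one, so the groups overlapped. The means were 142 ± 23.0 CPM after the miR-125a-5p mimic and 133 ± 6.26 CPM after the control mimic (SD, n = 3 each), from 970 to 1461 and from 1140 to 1285 raw counts. The log2 fold change was 0.099 (SE 0.11, edgeR adjusted p = 0.947), a level 7.1% higher, with a 95% interval of -8.4% to 25.2%. An exact two-sided permutation test of the log2 CPM over the 6 libraries gave p = 0.6, where 0.1 is the smallest that 3 against 3 libraries allow. A fall of OSBPL9 transcript of the size of LIPA's was outside this interval: LIPA averaged 111 ± 11.7 CPM in miR-125a-5p libraries and 226 ± 51.1 CPM in control libraries (SD, n = 3 each), a log2 fold change of -1.03. The median log2 fold change of genes with an 8mer, -0.065, was inside the OSBPL9 interval, which is -0.126 to 0.324 on the log2 scale. A fall of that size could thus not be told from no change. Protein was not measured, and a change of translation alone would not appear in these counts.

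The result for OSBPL9 leaned on miR-125a-5p libraries 2 and 3, which also lay at opposite ends of the second axis (21.5 and -31.1). Without miR-125a-5p library 3 the log2 fold change was 0.22 with an unadjusted edgeR p of 0.040 and an adjusted p of 0.771. Without miR-125a-5p library 2 it was 0.011 (edgeR adjusted p = 0.998), and without control library 1 it was 0.058 (edgeR adjusted p = 0.955). In each of the 16 fits run the estimate was above 0 and did not pass the adjusted threshold.

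**Figure D1:**
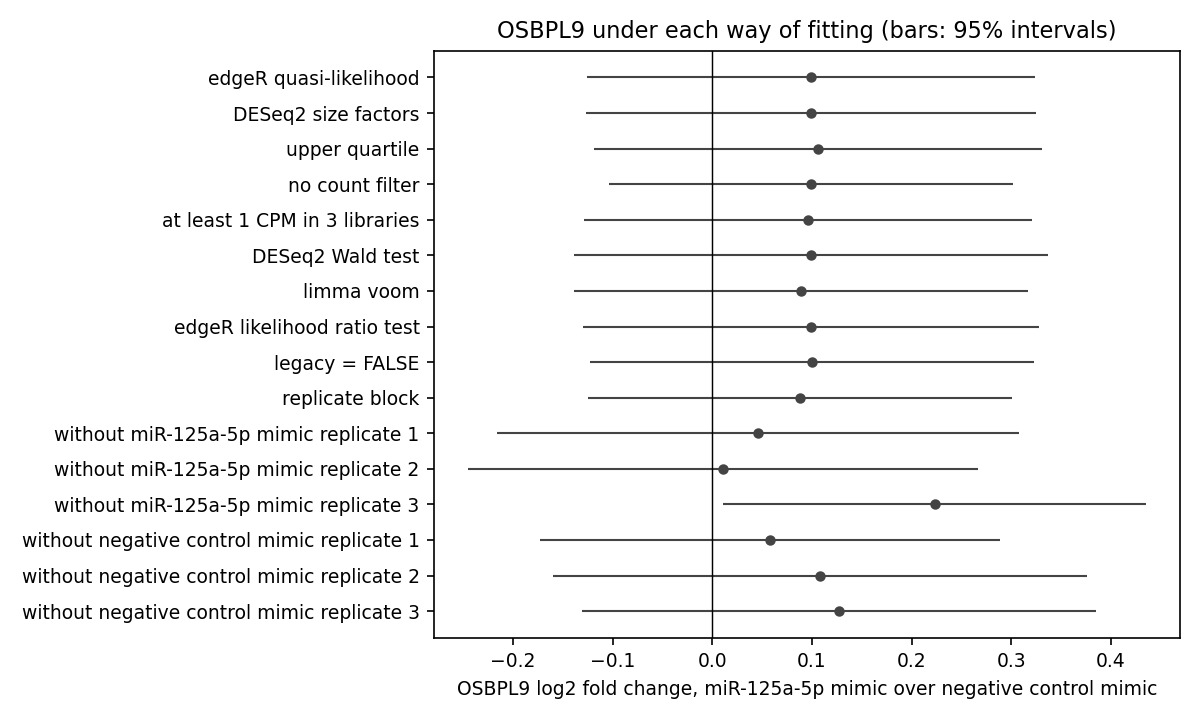
OSBPL9 log2 fold change of the miR-125a-5p mimic over the negative control mimic (x axis) under each of 16 ways of fitting the counts (y axis), with points for estimates and bars for 95% intervals. Estimates run from 0.011 without miR-125a-5p replicate 2 to 0.22 without miR-125a-5p replicate 3, and the interval of that last fit is the 1 that lies wholly above 0.

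Transcripts of the partners of ORP9 also did not pass the edgeR test, but only OSBPL11 had enough counts for a narrow interval. OSBPL11, which encodes ORP11 and has no 3′ UTR match, had 56.3, 65.2 and 56.5 CPM in miR-125a-5p libraries and 56.7, 59.3 and 62.9 CPM in control libraries. MiR-125a-5p libraries 1 and 3 were below every control library and miR-125a-5p library 2 was above every one, so the groups overlapped. The log2 fold change was -0.006 (95% interval -15.3% to 17.1%, edgeR adjusted p = 0.996). OSBPL10, which encodes ORP10, was near the limit of detection, with 8, 11 and 1 raw counts in miR-125a-5p libraries and 9, 10 and 13 in control libraries. Its lowest value was that of miR-125a-5p library 3, and without that library the log2 fold change of -0.60 became -0.12. The 95% interval of OSBPL10 ran from -74.0% to 66.8%, so even a large difference was not detectable at this depth.

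OSBP itself, which binds oxysterols and exchanges cholesterol for PI4P between the endoplasmic reticulum and the Golgi, had 86.4, 87.4 and 83.0 CPM in miR-125a-5p libraries. In control libraries it had 85.6, 88.0 and 77.7 CPM. All miR-125a-5p values lay inside the control range, and the log2 fold change was 0.032 (SE 0.10, edgeR adjusted p = 0.985), with a 95% interval of -11.7% to 18.5%. OSBP2, its closest relative in the family and known as ORP4, had 1.29, 2.28 and 1.68 CPM in miR-125a-5p libraries against 1.86, 0.474 and 0.331 CPM in control libraries. Control library 1 was within the miR-125a-5p range and the other control libraries were below it, with raw counts of 3 to 21. The OSBP2 log2 fold change of 0.93 had an SE of 0.60 (edgeR adjusted p = 0.887), and it was 2.09 without control library 1, which also did not pass.

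The members that act at late endosomes or reach the plasma membrane also did not pass. OSBPL1A encodes ORP1, whose long form sits on late endosomes with the GTPase Rab7. Its transcript had 120.5, 98.9 and 100.4 CPM in miR-125a-5p libraries and 119.6, 96.4 and 113.6 CPM in control libraries. Each group had values near 100 and near 120, and the log2 fold change was -0.045 (edgeR adjusted p = 0.976). OSBPL2 encodes ORP2, a form without the membrane-binding PH domain, which delivers cholesterol to the plasma membrane. It had 29.8, 36.0 and 32.6 CPM in miR-125a-5p libraries and 34.5, 34.3 and 31.9 CPM in control libraries, with overlap and a log2 fold change of -0.034 (edgeR adjusted p = 0.986).

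ORP5 and ORP8 are anchored in the endoplasmic reticulum by a membrane-spanning tail and move phosphatidylserine to the plasma membrane in exchange for PI4P. OSBPL8 had 219.6, 225 and 191 CPM in miR-125a-5p libraries and 207, 210.5 and 235 CPM in control libraries. Its lowest value was again in miR-125a-5p library 3 and its highest in control library 3, with a log2 fold change of -0.037 (edgeR adjusted p = 0.978) and a 95% interval of -15% to 11.7%. OSBPL5, with the 7mer-m8 shown above, had 21.7, 24.9 and 29.3 CPM in miR-125a-5p libraries and 26.8, 23.8 and 27.0 CPM in control libraries. The miR-125a-5p libraries held both its lowest and its highest value. The OSBPL5 log2 fold change was -0.031 (edgeR adjusted p = 0.989), and the 95% interval ran from -21.4% to 21.8%.

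OSBPL3, OSBPL6 and OSBPL7 form a subfamily of like sequence, of which ORP3 is known for binding the small GTPase R-Ras and acting on cell adhesion. OSBPL3 had 31.6, 31.7 and 32.7 CPM in miR-125a-5p libraries and 25, 30.4 and 34.5 CPM in control libraries. The miR-125a-5p values sat close together inside the control range, and without control library 1, the lowest, the log2 fold change of 0.097 was -0.023. OSBPL7 was the member with an unadjusted p under 0.05. It had 5.52, 7.5 and 6.59 CPM in miR-125a-5p libraries, against 4.02, 5.09 and 3.65 CPM in control libraries, from 47, 69 and 55 raw counts against 41, 43 and 33. Every miR-125a-5p library was above every control library. It was the 1 member of 10 whose groups did not overlap, where 11.2% of all tested genes had no overlap. Its log2 fold change was 0.62 (SE 0.29, unadjusted p = 0.043, edgeR adjusted p = 0.833), so it did not pass. Its unadjusted p was also above 0.05 without miR-125a-5p library 2 or 3 or control library 1 or 3, at 0.0767 to 0.144. OSBPL6 had 3.76, 6.41 and 4.91 CPM in miR-125a-5p libraries and 5.10, 6.28 and 4.42 CPM in control libraries, with overlap and a log2 fold change of -0.061 (edgeR adjusted p = 0.989).

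**Figure D2:**
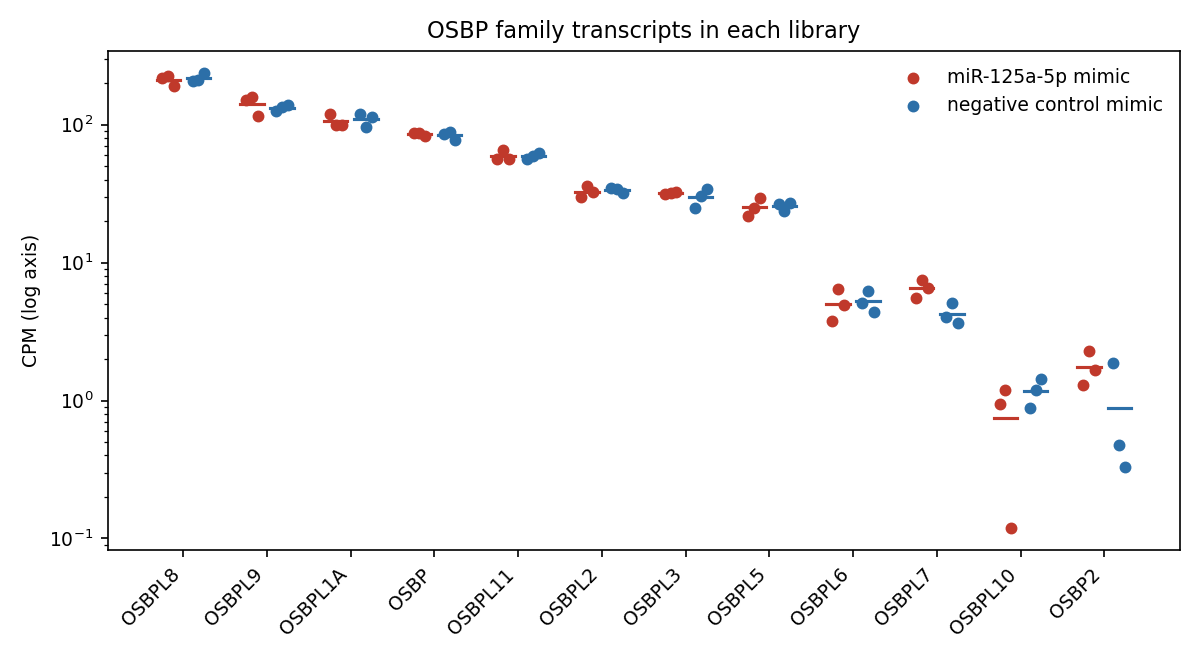
CPM on a log axis (y) of the 10 members and of OSBP2 and OSBPL6 (x) in each library, red for miR-125a-5p mimic and blue for negative control mimic, with a bar at each group mean (n = 3 each). The 2 colours overlap for each gene except OSBPL7, and the single low point of OSBPL10 is miR-125a-5p library 3 with 1 count.

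**Figure D3:**
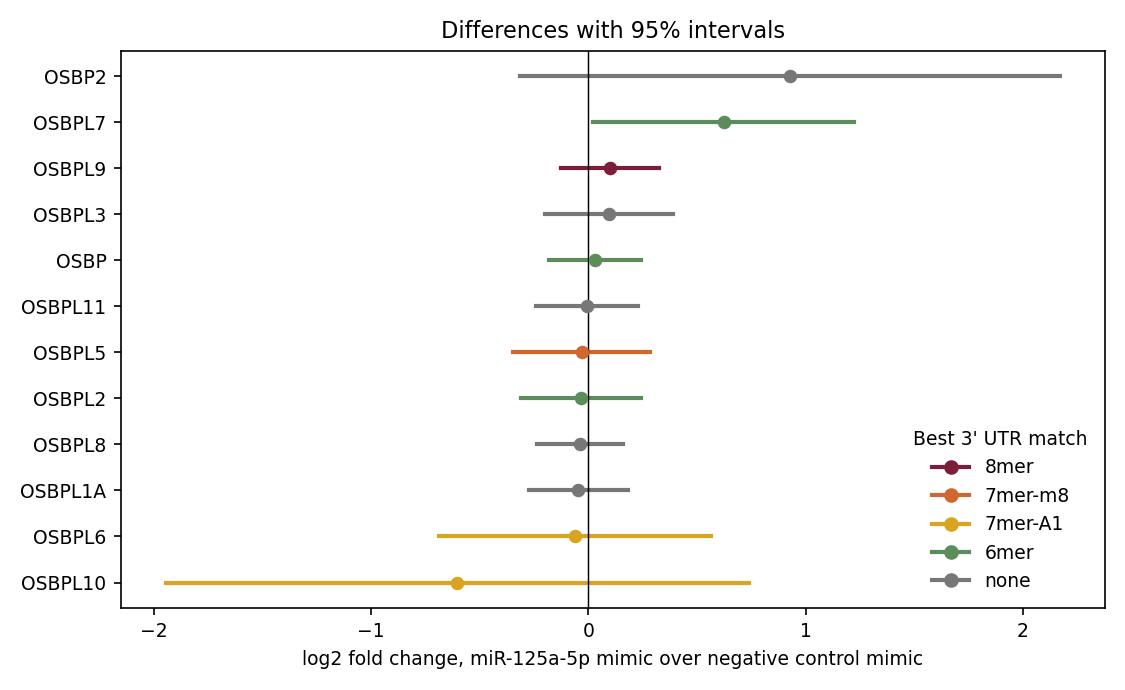
Log2 fold change of the miR-125a-5p mimic over the negative control mimic (x) with 95% intervals for the family genes (y), coloured by the best seed match in the longest 3′ UTR. The 8 members averaging at least 20 CPM lie between -0.045 and 0.099, and the wide intervals belong to the genes with few counts.

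Among the 8 members that averaged at least 20 CPM, log2 fold changes ran from -0.045 to 0.099 and the median size, either way, was 0.036. Over the 7592 tested genes at that level the median size was 0.09. The outermost bounds of the 95% intervals of these 8 members were -0.35 and 0.39. For the same 8, edgeR's biological coefficient of variation was 8.56% to 12%, and the median of genes at that level was 9.86%. This estimate is drawn towards the trend of all genes, so its closeness to that median is partly built in. The observed coefficient of variation of CPM within a group ran from 1.87% (OSBPL3) to 16.1% (OSBPL9), both in miR-125a-5p libraries. Summed over the 10 members, the level was 703 ± 47.9 CPM in miR-125a-5p libraries and 699 ± 23.7 CPM in control libraries (SD, n = 3 each), and the lowest of the 6 sums, 648 CPM, was that of miR-125a-5p library 3.

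The match classes were then read against the fold changes. Over the 768 tested genes with an 8mer the median log2 fold change was -0.065 and 61.5% were negative, and 3 of them were among the 4 that passed. Genes with a 7mer-m8 had a median of -0.028, those with a 7mer-A1 -0.01, those with only a 6mer 0.011 and those with none 0.015. The classes also differed in median 3′ UTR length, at 2815, 2513, 2751, 2108 and 887 bases in the same order from 8mer to none. The part of length in these medians was not tested. The OSBPL9 3′ UTR of 680 bases was shorter than the lower quartile of genes with an 8mer, 1564 bases. OSBPL9, at 0.099, was higher than 589 of the 768 genes with an 8mer (76.7%), or 82.4% of the 420 that averaged at least 20 CPM. Its whole 95% interval lay above the fold changes of 277 of the 768 (36.1%), while the class median of -0.065 lay inside it. Genes with no match also held many such values. About 22% of them were below the lower bound of that interval (percentile 22 at -0.126). About 68% were below OSBPL9 itself (percentiles 68 and 69 at 0.0958 and 0.1008). The OSBPL5 estimate, -0.031, lay near the median of its class, but its 95% interval of -0.347 to 0.284 covered most of that class. It held percentiles 8 to 92, at -0.345 and 0.252, so the place of OSBPL5 was not fixed. OSBPL10 had too few counts to be placed. Of the 4 members with no match in the longest 3′ UTR, the log2 fold changes were -0.045, 0.097, -0.037 and -0.006 for OSBPL1A, OSBPL3, OSBPL8 and OSBPL11. Members with and without a match of 7 or 8 bases thus overlapped, and with 10 genes no test was made.

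**Figure D4:**
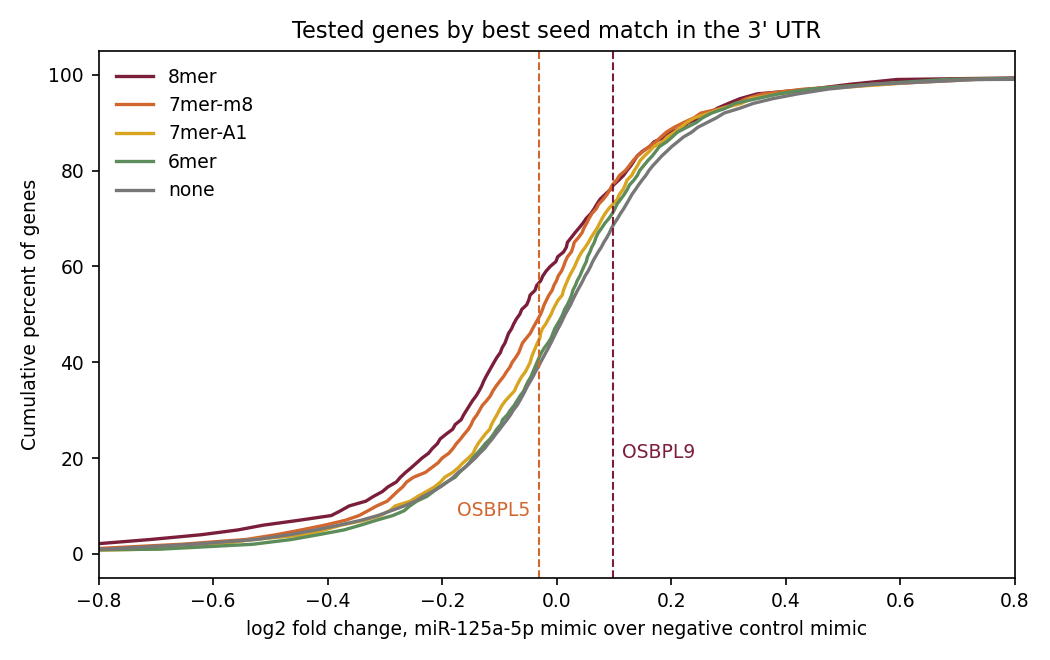
Cumulative percent of tested genes (y) by log2 fold change of the miR-125a-5p mimic over the negative control mimic (x), for the 5 classes of best 3′ UTR seed match, with dashed lines at OSBPL9 and OSBPL5. At their medians the 8mer curve lies furthest left, and the OSBPL9 line crosses it where 76.7% of its genes are lower.

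Matches in the coding sequence were read in the same way. OSBPL3 and OSBPL7 held a 7mer-m8 there and OSBP, OSBPL2 and OSBPL8 a 7mer-A1, so 5 of 10 members had a match of 7 bases. Over all searched genes 6.58% had an 8mer as best match in the coding sequence, 10.1% a 7mer-m8 and 8.54% a 7mer-A1. None of these 5 members was lower by the test.

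Levels of different members can be compared only per length, so CPM were divided by the length in kb of all annotated exons of each gene. On this scale OSBPL8 stood highest in miR-125a-5p and in control libraries, at 23.0 ± 1.99 and 23.7 ± 1.69 CPM per kb (SD, n = 3 each), and its control range did not overlap with that of the next gene. OSBP (15.6 ± 0.42 and 15.3 ± 0.983 CPM per kb), OSBPL11 (14.2 ± 1.22 and 14.2 ± 0.735), OSBPL9 (15 ± 2.41 and 14 ± 0.658) and OSBPL1A (13.3 ± 1.5 and 13.7 ± 1.5) followed. Each of these overlapped with its neighbour in the control libraries. OSBPL3 (3.95 ± 0.074 and 3.70 ± 0.585 CPM per kb) and OSBPL5 (3.39 ± 0.512 and 3.46 ± 0.238) also overlapped, and OSBPL2 (2.51 ± 0.236 and 2.58 ± 0.112) was below both. OSBPL7, at 0.995 ± 0.151 and 0.647 ± 0.114 CPM per kb, and OSBPL6, at 0.438 ± 0.116 and 0.458 ± 0.0818, were lower. OSBP2 and OSBPL10 were at or under 0.27 CPM per kb in each group mean. The order depends on the length used: per kb of the longest transcript OSBPL9 had 31.5 ± 5.08 CPM per kb in miR-125a-5p libraries and 29.4 ± 1.39 in control libraries, and its control range overlapped with that of OSBPL8. On that scale the miR-125a-5p mean of OSBPL9 was above that of OSBPL8, which was 29.3 ± 2.53 CPM per kb in miR-125a-5p libraries and 30.1 ± 2.15 in control libraries. OSBPL2 then had 7.02 ± 0.659 CPM per kb in miR-125a-5p libraries and 7.2 ± 0.312 in control libraries, a control range that overlapped with that of OSBPL5 and lay above that of OSBPL3.

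Some reads may belong to other genes, since no source used here gives the counting rule or the strand setting. In GENCODE 29, 5.0% of OSBPL9 exon bases overlapped with exons of AL050343.1 on the same strand and 1.7% with exons of NRDC on the opposite strand. The annotation also lists 5 processed pseudogenes of OSBPL9, on chromosomes 3, 11 and 12, whose reads could be exchanged with those of OSBPL9. Exons of OSBPL1A overlapped by 2.1% and 0.6% with those of a pair of non-coding genes, and those of OSBPL10 by 0.3% with OSBPL10-AS1.

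The genes whose log2 CPM followed that of OSBPL9 most closely over the 6 libraries, among 11596 other genes averaging at least 5 CPM, were PLA2G4A, RDX, UPF2, OSGEP and FBXO8, with Pearson r of 0.997, 0.994, 0.989, 0.986 and 0.977. PLA2G4A, the cytosolic phospholipase A2, had 39.4, 41.7 and 25 CPM in miR-125a-5p libraries and 28.9, 31.1 and 33.2 CPM in control libraries, with the same low miR-125a-5p library 3. With only 6 libraries, 167 genes (1.44%) had an r above 0.9, so these names are a description of the libraries. The part of depth and composition in these correlations was not tested. None of the 5 passed the edgeR test.

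The wider pathway was read from 4 lists of 119 genes, of which 106 were tested, and none passed the edgeR test. At an unadjusted p under 0.05 there were 10 (9.43%, against 5.92% of all tested genes), and 49 of 106 were negative with a median log2 fold change of 0.017. The first list holds contact-site proteins and partners of ORPs, not all of which bind ORPs, and the second genes of PI4P metabolism. The others hold lipid transfer proteins of other families, and genes of oxysterol synthesis, sensing and esterification.

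Of 20 tested contact-site genes, 9 were negative and 11 positive (median 0.025), with 1 at an unadjusted p under 0.05. That was VAPB, a VAP receptor for ORPs, at 78.0 ± 2.97 CPM in miR-125a-5p libraries and 66.8 ± 5.56 CPM in control libraries (SD, n = 3 each, edgeR adjusted p = 0.837). RMDN3, a tether between mitochondria and the endoplasmic reticulum, was at 21.7 ± 2.40 and 26.9 ± 1.67 CPM (edgeR adjusted p = 0.843). Of 25 genes of PI4P metabolism, 10 were negative and 15 positive (median 0.035). An unadjusted p under 0.05 was found for 4, of which 2 were higher and 2 lower. HYCC2, from the hyccin family that belongs to the plasma membrane PI4-kinase complex, had the smallest adjusted p of all 106 genes. It averaged 34.8 ± 0.965 CPM in miR-125a-5p libraries and 45.9 ± 4.29 CPM in control libraries, a log2 fold change of -0.40 (edgeR adjusted p = 0.541). PIP5K1A, a kinase that turns PI4P into its bisphosphate, was at 46.9 ± 4.50 and 58.8 ± 7.33 CPM (edgeR adjusted p = 0.681).

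Of 43 lipid transfer genes outside the family, 22 were negative and 21 positive (median -0.005). An unadjusted p under 0.05 was found for 4, of which 1 was higher and 3 lower. NPC1, which exports cholesterol from late endosomes and lysosomes, averaged 58.3 ± 7.05 CPM in miR-125a-5p libraries and 72.3 ± 10.1 CPM in control libraries (log2 fold change -0.31, edgeR adjusted p = 0.736). BLTP3A, a bridge-like lipid transfer protein, was at 268 ± 20.6 and 310 ± 27.5 CPM (edgeR adjusted p = 0.818). Of 18 oxysterol genes, 8 were negative and 10 positive (median 0.071), and 1 had an unadjusted p under 0.05. INSIG1, which holds the sterol sensor SCAP in the endoplasmic reticulum when oxysterols are bound, averaged 97.2 ± 9.65 CPM in miR-125a-5p libraries and 79.1 ± 9.90 CPM in control libraries (edgeR adjusted p = 0.694). NR1H3, the oxysterol receptor LXR-alpha, was at 11.4 ± 2.89 and 14.7 ± 1.21 CPM (edgeR adjusted p = 0.864).

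**Figure D5:**
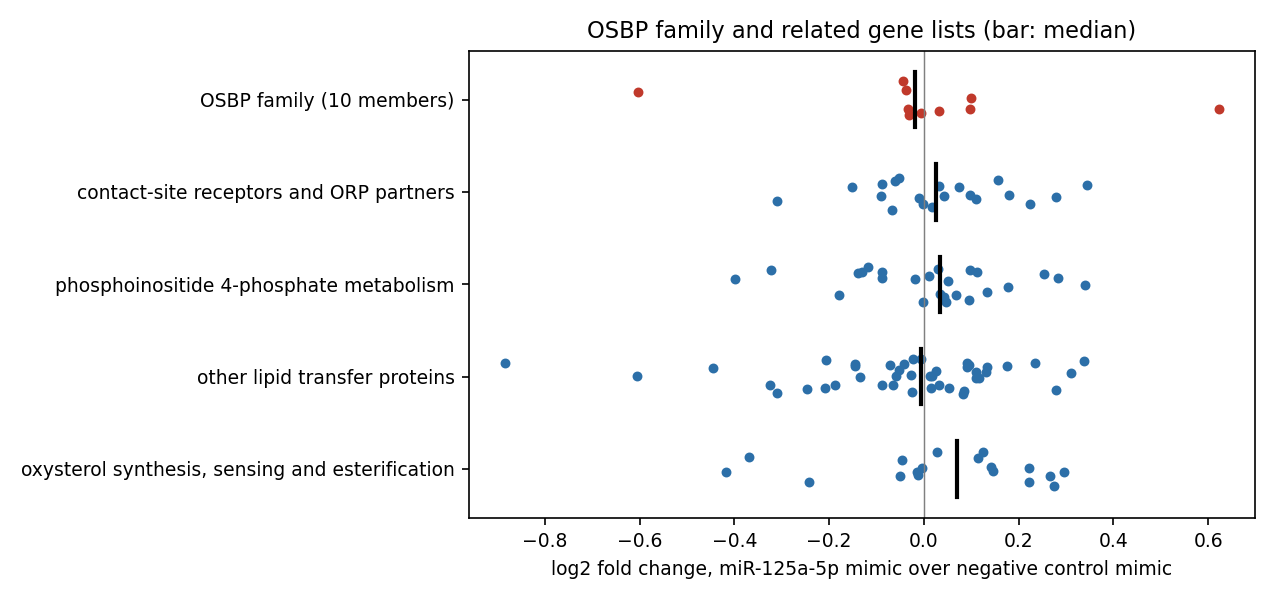
Log2 fold change of the miR-125a-5p mimic over the negative control mimic (x) for each tested gene of the OSBP family (red, 10 members) and of the 4 related lists (blue), with a bar at each median. Medians lie between -0.019 and 0.071, and the 2 outer red points are OSBPL10 and OSBPL7.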

How the data were processed

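RNA was sequenced in 6 libraries. Raw counts per gene, keyed by NCBI gene ID, were deposited by the authors in 1 table, and the submitters' processing notes name bcl2fastq, TopHat and edgeR with hg19. The counter, annotation and strand setting are not given. Of 26347 identifiers 99.5% matched a RefSeq symbol (GRCh38.p14), and 0 columns belonged to no library. No pair of replicate libraries agreed within sampling noise (chi-square per gene 4.01 to 12).

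Counts were filtered with filterByExpr, scaled with TMM and tested with glmQLFit and glmQLFTest of edgeR 4.0.16 (R 4.3.3), with no covariate and Benjamini-Hochberg adjustment at 0.05 over 14731 genes. SE is the size of the log2 fold change divided by the square root of F, and intervals use its t quantile. CPM use the same scaling, and log2 CPM a prior count of 2. Alternatives used DESeq2 1.42.0, limma 3.58.1 and other filters, scalings and libraries. Sites, exon lengths and coordinates come from GENCODE 29 (GRCh38), with 3′ UTRs of at least 20 bases.

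Named were the 10 members, OSBP2 and OSBPL6, the 2 genes of each list with the smallest p, the 5 genes most like OSBPL9, LIPA, and the markers LYZ, ITGAM, CSF1R, FCGR1A and MPO, chosen after their values were seen. The members and lists were chosen with earlier results of these data known.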

Additional observations from a re-analysis of the deposited data

How the results depend on the processing

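OSBPL9 kept its positive direction in all 15 alternatives (adjusted p 0.771 to 0.998), and with 1 library left out its log2 fold change ran from 0.011 to 0.22. None of the 10 members and none of the related genes passed under any alternative. DESeq2 gave no adjusted p for OSBPL7 and OSBPL10, which were left out of its count. The number of members at an unadjusted p under 0.05 was 1, but 0 with DESeq2 and with the replicate number as a block, and 0 to 1 with 1 library left out (0 without miR-125a-5p library 2 or control library 1 or 3, while without miR-125a-5p library 3 the 1 was OSBPL9 and not OSBPL7). Deviations of libraries of the same number from their group means had correlations of 0.056, 0.014 and -0.016. With 3 libraries in each group this cannot exclude a pairing, and whether such libraries shared a day or culture is not known. The block gave OSBPL9 0.088 and raised the genes that passed over the whole table to 9. That count was 4 in the main fit, against 52 with no count filter, 13 with DESeq2, 21 with the likelihood ratio test and 14 without control library 3.

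Family genes near 0 changed sign with 1 library left out: OSBP -0.019 to 0.067, OSBPL1A -0.14 to 0.018, OSBPL2 -0.11 to 0.027, OSBPL3 -0.023 to 0.21, OSBPL5 -0.15 to 0.065, OSBPL8 -0.085 to 0.029, OSBPL11 -0.082 to 0.034 and, outside the 10 members, OSBPL6 -0.28 to 0.11. With upper quartile scaling OSBPL11 was at 0.001. The cause was not tested. Members with a match of 7 or 8 bases numbered 3 in the longest 3′ UTR, 1 in the shortest and 5 in the coding sequence. The control level of OSBPL9 was 14 CPM per kb of all exons and 29.4 per kb of the longest transcript. Other prior counts left its exact permutation p at 0.6. Depth limits OSBPL10, OSBP2, OSBPL6 and OSBPL7.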
